A study of Mus musculus with 2 samples.

Results

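The antioxidant genes were a list of 39 genes of the thioredoxin, glutathione and Nrf2-dependent systems, among them the 3 thioredoxin reductases. Members were the rows of the deposited expression tables that carried a listed symbol. All 39 were found in both tables, each as a single row, out of 18742 genes above 0 in at least 1 library. The members are described in 2 libraries of mouse primordial germ cells (PGCs), the precursors of eggs and sperm. PGCs were sorted for GFP at E13.5 from genital ridges of both male and female embryos of MCH mothers and Oct4-deltaPE-GFP fathers, infected at an MOI of 5 with a control lentivirus or one that expresses Klf9 (Klf9-OE), and cultured for 1 day. The vector series of the study drives its insert from an EF promoter, and the methods name several empty or mCherry vectors as controls without saying which one served here. The labels give a GS medium with bFGF for both libraries, whereas the text of the study describes the RNA-seq cultures as lacking bFGF. Each condition had 1 library, so no difference has a replicate check and no test was possible.

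Cells remove hydrogen peroxide and lipid peroxides mainly through 2 thiol systems, both fed by NADPH. In the first, thioredoxin reductases keep thioredoxins reduced, and thioredoxins in turn reduce peroxiredoxins. In the second, glutathione reductase keeps glutathione reduced, and glutathione serves glutathione peroxidases and transferases. Nrf2, encoded by Nfe2l2, is held in check by Keap1 and, when released, binds antioxidant response elements near many of these genes. KLF9 is a zinc finger factor that binds GC-rich and CACCC-type sites, and Txnrd2 has been reported as one of its targets.

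Expression was given as FPKM, a read density scaled to transcript length and to the size of the library by Cufflinks, with a 95% interval that covers the estimation within a library but not the difference between cultures. Klf9 itself had an FPKM of 2.27 in control PGCs (1.97 to 2.57) and 80.8 in Klf9-OE PGCs (77.0 to 84.5), with reads of the vector and of the endogenous gene in 1 value. The span of Klf9 was not the same in both libraries. By quantitative PCR at the same MOI, the paper reports a far larger rise, in PGCs of an earlier stage cultured for longer. The tables hold no read totals. Judged from the widths of the intervals of 8551 genes, the median ratio of implied reads per unit of FPKM, Klf9-OE over control, was 1.204. Where fewer than 10 reads were implied for a gene, an even number was found for 87.8% of genes in Klf9-OE and for 36.2% in control, as if the reads of Klf9-OE had been entered as pairs, and the Klf9-OE intervals may therefore be too narrow. Counts of members with intervals apart are therefore given also with the Klf9-OE intervals widened by the square root of 2, and members that overlap only then are named. With each such pair counted once, the ratio of 1.204 would be 0.602, so which library was deeper is not settled. All 12 PGC and germ cell markers were above an FPKM of 1 in both libraries, and their summed FPKM was 1695 in control and 1426 in Klf9-OE. Of these markers, 10 were lower in Klf9-OE, such as Dppa3 (294 and 179) and Pou5f1 (387 and 277). The other 2, Dazl and Sox2, were higher. Markers of other cells stood lower and differed between the libraries. The 11 gonad somatic markers summed to 37.2 in control and 47.9 in Klf9-OE, with Star listed at 0 in control. The 4 endothelial markers summed to 3.16 and 6.21, most of it from Cdh5. The 9 matched erythroid rows summed to 55.4 and 13.496, nearly all from 2 haemoglobin rows. The 9 macrophage markers summed to 6.22 and 5.43, with C1qb, C1qc and Lyz2 listed at 0 in Klf9-OE.

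PGCs expressed the antioxidant genes at widely different levels. The FPKM of the members ran from 1.54 for Nqo1 to 973 for Ftl1 in control PGCs, with a median of 31.0, and from 2.53 for Gpx7 to 1289 for Ftl1 in Klf9-OE PGCs, with a median of 38.9. Ferritin light and heavy chains (Ftl1, Fth1), superoxide dismutase 1 (Sod1) and peroxiredoxin 1 (Prdx1) each had an FPKM of at least 603 in both libraries, above more than 99% of all genes. At the other end, Nqo1, Srxn1, Gpx7, Gpx8 and Blvrb were below an FPKM of 5 in control. None of the 39 was listed at 0. All passed an FPKM of 1 in both libraries.

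**Figure D1:**
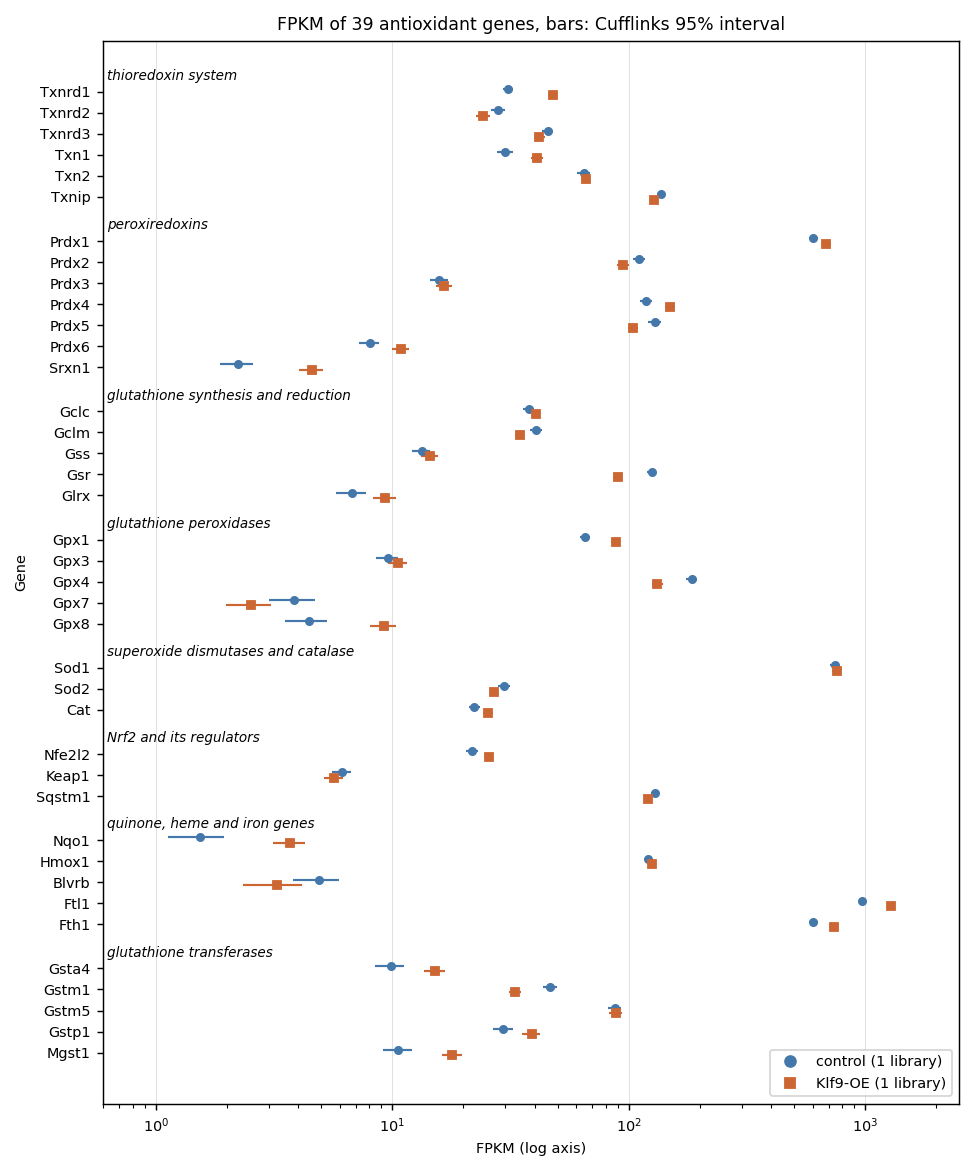
FPKM (log axis) of each of the 39 antioxidant genes in the control library (circles) and the Klf9-OE library (squares), grouped by role, with bars for the Cufflinks 95% interval. Levels span from 1.54 for Nqo1 to 1289 for Ftl1, and the pairs of symbols lie farthest apart for Nqo1, Srxn1 and Gpx8.

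The members were more often higher than lower in Klf9-OE PGCs, by small amounts. A gene was called higher or lower when its FPKM, with 0.1 added, differed at least 1.5-fold. By this rule 6 of the 39 members (15.4%) were higher, namely Nqo1, Gpx8, Srxn1, Mgst1, Txnrd1 and Gsta4, and 1 (2.56%), Gpx7, was lower. Over all genes, 10.4% were higher and 9.83% were lower. Over genes with an FPKM of at least 1 in at least 1 library, which all members passed, 7.15% were higher and 8.05% were lower. At a difference of 2-fold, Nqo1, Gpx8 and Srxn1 remained higher (7.69%, against 3.68% of genes with an FPKM of at least 1) and no member was lower (against 3.51%).

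The median log2 fold change of the members, taken as log2(FPKM + 0.1) in Klf9-OE minus control, was 0.10, against -0.02 over all genes and -0.03 over genes with an FPKM of at least 1. Values were above 0 for 25 members and below 0 for 14. In bulk libraries, more RNA of a gene per cell and more cells that express it cannot be told apart.

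Control and Klf9-OE intervals lay apart for 25 members. Of these, 17 (43.6%) were higher and 8 (20.5%) lower in Klf9-OE. Over all genes with a single row in each table, 11.2% were apart and higher and 14.4% apart and lower. Over those with an FPKM of at least 1 the shares were 14.8% and 20.2%. Since narrow intervals go with high levels, the count was repeated for genes with an FPKM of at least 10. Among these, 13 of 32 members (40.6%) were apart and higher and 8 (25%) apart and lower, against 14.9% and 23.9% of genes. The share of members apart and lower was thus close to that of other genes. With widened Klf9-OE intervals, 17 members were apart and higher and 6 apart and lower, against 11.7% and 16.9% of genes with an FPKM of at least 1. Txnrd2 and Sod2 were those that then overlapped.

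**Figure D2:**
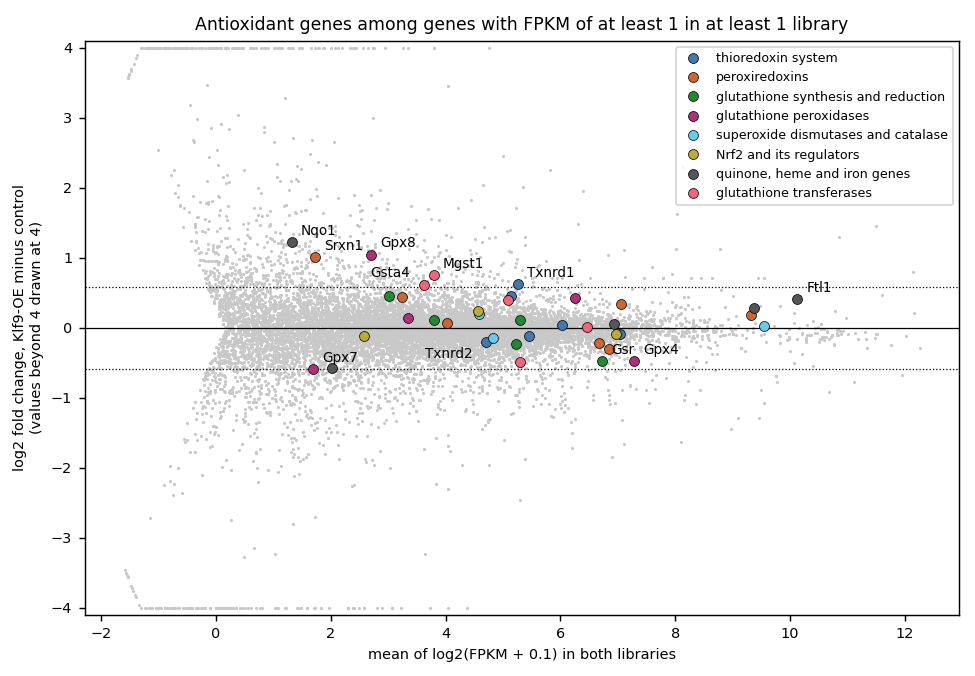
Log2 fold change (Klf9-OE minus control) against the mean of log2(FPKM + 0.1) for genes with an FPKM of at least 1 in at least 1 library (grey) and the 39 members (coloured by role), with dotted lines at a 1.5-fold difference. Nqo1, Srxn1, Gpx8, Mgst1, Txnrd1 and Gsta4 lie above the upper line and Gpx7 lies at the lower one, and grey points surround the members on both sides (261 points beyond 4 are drawn at 4).

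The 3 thioredoxin reductases, selenoproteins that pass electrons from NADPH to thioredoxin, did not move together, and Txnrd1 was the one with intervals apart both as deposited and widened. Txnrd1, the cytosolic enzyme, lies on chromosome 10 of mm10 from 82833951 to 82897724 (forward strand) and had an FPKM of 31.0 in control PGCs (29.5 to 32.6) and 47.7 in Klf9-OE PGCs (45.8 to 49.7). It was 1.54-fold higher (95% interval 1.44 to 1.64, from the intervals of both libraries combined). Txnrd2, the mitochondrial enzyme, lies on chromosome 16 from 18426417 to 18479073 (forward strand) and had an FPKM of 28.1 in control PGCs (26.1 to 30.0) and 24.3 in Klf9-OE PGCs (22.6 to 26.0). The reported KLF9 target was therefore 1.16-fold lower (1.05 to 1.27), and its intervals were apart only as deposited. With the widened Klf9-OE interval they overlapped. Txnrd3, a thioredoxin and glutathione reductase known from testis (chromosome 6, 89643988 to 89675529, forward strand), had 45.4 (42.9 to 47.9) and 41.9 (39.7 to 44.1), with overlapping intervals. Txnrd3 was the most highly expressed of the 3 in control PGCs, and Txnrd1 in Klf9-OE PGCs.

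The region around the start site of a gene, from 250 bases before it to 50 after it, was read from RefSeq for GRCm38.p6. Shown here are the starts of Txnrd1 with a match to the antioxidant response element and of Txnrd2. Capitals mark matches, on either strand, to the core of the antioxidant response element, TGACNNNGC, and to the GC box, GGGCGG. The Txnrd1 window (chr10:82858956-82859255, forward strand, the second of 3 annotated starts) held 1 of each, with first bases at -92 and -196 from the start site. The Txnrd2 window (chr16:18426167-18426466, forward strand) held a GC box at -78 and no match to the response element.
Txnrd1: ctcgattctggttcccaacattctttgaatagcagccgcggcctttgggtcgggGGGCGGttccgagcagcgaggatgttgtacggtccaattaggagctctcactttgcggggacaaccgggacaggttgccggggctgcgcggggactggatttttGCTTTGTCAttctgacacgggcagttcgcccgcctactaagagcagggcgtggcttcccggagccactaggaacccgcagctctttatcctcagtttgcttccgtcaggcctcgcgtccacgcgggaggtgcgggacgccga
Txnrd2: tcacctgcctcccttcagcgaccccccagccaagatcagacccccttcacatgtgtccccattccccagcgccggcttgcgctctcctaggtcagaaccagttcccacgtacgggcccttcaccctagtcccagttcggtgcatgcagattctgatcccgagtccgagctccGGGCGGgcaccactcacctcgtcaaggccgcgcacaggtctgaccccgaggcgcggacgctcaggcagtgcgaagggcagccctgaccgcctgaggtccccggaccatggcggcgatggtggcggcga

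Of the other members of the thioredoxin system, Txn1 was the one with intervals apart. Txn1, the cytosolic thioredoxin, had an FPKM of 30.0 (27.7 to 32.3) in control and 41.1 (38.7 to 43.5) in Klf9-OE PGCs, 1.37-fold higher (1.25 to 1.51) with intervals apart. Txn2, the mitochondrial thioredoxin, had 64.5 (60.5 to 68.5) and 66.2 (63.5 to 68.9). Txnip, an arrestin-like protein that binds and inhibits thioredoxin, had 136 (132 to 141) and 128 (124 to 133). The intervals of Txn2 and Txnip overlapped, although the combined interval put Txnip 1.06-fold lower (1.01 to 1.12). In the same way, the combined interval put Txnrd3, Gpx7, Sqstm1 and Blvrb lower and Gclc higher, although their intervals overlapped. With the widened Klf9-OE interval this held for Txnip, Gpx7 and Gclc only. The cytosolic pair of reductase and thioredoxin was thus higher in Klf9-OE.

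Among peroxiredoxins, which reduce peroxides through a reactive cysteine, 3 were higher, 2 were lower and the intervals of 1 overlapped. Prdx1, by far the most highly expressed, had an FPKM of 603 (577 to 630) in control and 685 (655 to 714) in Klf9-OE PGCs, 1.13-fold higher (1.07 to 1.21). Prdx4, which acts in the endoplasmic reticulum, had 119 (112 to 125) and 149 (142 to 156), but its span was not the same in both libraries. Prdx6, the enzyme of the family that also acts as a phospholipase, had 8.04 (7.24 to 8.83) and 10.9 (10.02 to 11.8). Prdx2 was lower, from 110 (104 to 117) to 94.99 (89.4 to 101), and so was Prdx5, from 129 (120 to 137) to 104 (98.9 to 109). Prdx3, which acts in mitochondria, had 15.8 (14.4 to 17.2) and 16.5 (15.3 to 17.8). The differences of these 6 genes were all below 1.5-fold. Prdx2 is abundant in red blood cells, and of the 9 matched erythroid rows 6 were lower in Klf9-OE, 2 were higher and Hbb-bh1 was listed at 0 in both libraries. The haemoglobin row Hba-a1,Hba-a2 went from 36.6 to 7.30, whereas Alas2 had 0.532 and 0.570, Klf1 0.956 and 0.895, and Gata1 0.556 and 0.526. The part of red blood cells in the value of Prdx2 was not tested.

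Srxn1, sulfiredoxin, restores peroxiredoxins whose cysteine has been over-oxidised and is a known target of Nrf2. It lies on chromosome 2 from 152105524 to 152111376 (forward strand). Its FPKM was 2.23 (1.88 to 2.58) in control and 4.56 (4.02 to 5.11) in Klf9-OE PGCs, 2.05-fold higher (1.68 to 2.50). It had the largest difference of the peroxiredoxin group at the lowest level.

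Within glutathione synthesis and reduction, the genes did not move together. Gclc and Gclm encode the catalytic and modifier subunits of glutamate-cysteine ligase, the rate-limiting enzyme of glutathione synthesis. Gclc had an FPKM of 37.7 (35.6 to 39.7) in control and 40.5 (39.3 to 41.8) in Klf9-OE PGCs, with overlapping intervals. Gclm was lower, from 40.5 (38.1 to 43.0) to 34.6 (33.1 to 36.1), a 1.17-fold difference (1.09 to 1.26). Gss, glutathione synthetase, had 13.3 (12.1 to 14.5) and 14.4 (13.2 to 15.6). Gsr, glutathione reductase, had the highest level of these genes and was lower in Klf9-OE, from 125 (120 to 131) to 89.8 (85.8 to 93.8), a 1.39-fold difference (1.31 to 1.48). Glrx, a glutaredoxin that removes glutathione from proteins, was higher, from 6.78 (5.80 to 7.76) to 9.33 (8.33 to 10.3). None of these 5 genes was called at 1.5-fold.

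Glutathione peroxidases split by gene. Gpx4, the selenoenzyme that reduces lipid peroxides in membranes and restrains ferroptosis, was the highest and was lower in Klf9-OE, from an FPKM of 185 (175 to 195) to 132 (125 to 139), a 1.40-fold difference (1.30 to 1.51). Gpx1, the main cytosolic enzyme, was 1.34-fold higher (1.26 to 1.43), from 65.5 (62.2 to 68.9) to 87.9 (84.4 to 91.4). Gpx3, the secreted enzyme, had 9.57 (8.53 to 10.6) and 10.6 (9.58 to 11.5), with overlapping intervals. Gpx7 and Gpx8, related peroxidases of the endoplasmic reticulum, stood on opposite sides. Gpx8 (chromosome 13, 113042763 to 113046388, reverse strand) was 2.09-fold higher (1.64 to 2.65), from 4.43 (3.54 to 5.32) to 9.24 (8.06 to 10.4), while Gpx7 (chromosome 4, 108400217 to 108407200 in the control table, reverse strand) was 1.52-fold lower (1.12 to 2.07), from 3.86 (3.02 to 4.70) to 2.53 (1.98 to 3.08). The intervals of Gpx7 overlapped, its span was not the same in both tables, and the call at 1.5-fold was lost under 4 alternatives of scale or threshold. The 11 markers of gonad somatic cells summed to 37.2 in control and 47.9 in Klf9-OE, with 6 of them higher and 5 lower, and their part in the value of Gpx8 was not tested.

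Superoxide dismutases, which turn superoxide into hydrogen peroxide, and catalase, which breaks hydrogen peroxide down, differed little. Sod1, the copper-zinc enzyme of the cytosol, had an FPKM of 743 (709 to 777) in control and 757 (723 to 792) in Klf9-OE PGCs. The ratio was 1.02, and its interval ran from 0.955 to 1.09. Sod2, the manganese enzyme of mitochondria, was 1.11-fold lower (1.04 to 1.18), with an FPKM of 29.8 (28.1 to 31.4) in control and 26.8 (25.9 to 27.8) in Klf9-OE, and its intervals overlapped once widened. Cat was 1.14-fold higher (1.07 to 1.22), from 22.3 (21.1 to 23.4) to 25.4 (24.3 to 26.6).

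Of the members, Txnrd2, Txn2, Prdx3, Prdx5 and Sod2 were listed as mitochondrial, and none of these 5 was called in either direction. Other members, such as Mgst1 and Gpx4, are also found in mitochondria in part. The ratio of Klf9-OE over control was 0.808 for Prdx5, 0.866 for Txnrd2, 0.902 for Sod2, 1.03 for Txn2 and 1.05 for Prdx3. The intervals of 3 were apart and lower (1 when widened) and none was apart and higher, and the median log2 fold change was -0.15. Of genes with an FPKM of at least 1, 14.8% were apart and higher. Of the same genes, 20.2% were apart and lower, and 16.9% when the Klf9-OE intervals were widened. A list of 5 genes is too short to set against these shares. Prdx5 and Txnrd2 are also found outside mitochondria through other start codons or splice forms, which the values per gene do not separate.

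Nrf2 and its regulators differed by less than 1.2-fold. Nfe2l2, which encodes Nrf2, had an FPKM of 21.8 (20.6 to 23.0) in control and 25.6 (24.5 to 26.8) in Klf9-OE PGCs, 1.18-fold higher (1.096 to 1.26) with intervals apart. Keap1, the adaptor that sends Nrf2 for degradation, had 6.14 (5.57 to 6.71) and 5.65 (5.13 to 6.17). Sqstm1, encoding p62, a selective autophagy receptor that binds Keap1, had 129 (124 to 134) and 121 (116 to 126). The intervals of Keap1 and Sqstm1 overlapped. Nrf2 is regulated largely at the level of the protein, which RNA does not show.

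Nqo1, an NADPH-dependent quinone reductase and a widely used readout of Nrf2, had the largest fold difference of the 39 members and the lowest control level. It lies on chromosome 8 from 107388225 to 107403205 (reverse strand). Its FPKM was 1.54 (1.13 to 1.95) in control and 3.71 (3.13 to 4.28) in Klf9-OE PGCs, 2.42-fold higher (1.77 to 3.29). The intervals implied 56.1 reads in control and 167 in Klf9-OE, or 83.3 if the latter were entered as pairs. Implied reads followed the ratio of FPKM within 10%, after scaling by the median of 1.204, for 21 of the 39 members. Nqo1, Gpx8, Mgst1 and Gsta4 were among them. The called genes Srxn1 (160 and 277 reads), Txnrd1 (1610 and 2312) and Gpx7 (83.6 and 84.9) were not. For some members, such as Ftl1 (20035 and 3516) and Gstm1 (860 and 1205), reads went the opposite way to FPKM. This was also so for Gclm (1093 and 2170), Prdx5 (980 and 1687) and Sod2 (1300 and 3265). Of the members lower with intervals apart, Gsr, Gpx4, Gclm, Prdx5, Sod2 and Gstm1 did not follow, and Txnrd2 and Prdx2 did. Of those higher with intervals apart, Prdx1, Ftl1, Fth1 and Gstp1 did not follow either. Gclc (1366 and 4349), with overlapping intervals, also did not. Even with the widened interval, the ratio of Nqo1 ran from 1.71 to 3.41.

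Among genes of heme and iron handling, both ferritin chains were higher by less than 1.5-fold, and the intervals of Hmox1 and Blvrb overlapped. Hmox1, heme oxygenase 1, which is induced by heme and by oxidants, was highly expressed and had 121 (117 to 124) in control and 125 (122 to 128) in Klf9-OE PGCs. The ratio of 1.03 had an interval from 0.994 to 1.08. Macrophages are another known site of Hmox1. Of the 9 macrophage markers, 7 were below an FPKM of 1 in each library. Cd68 had 3.69 in control and 4.11 in Klf9-OE, Lyz2 1.00 and 0, and Csf1r 0.307 and 1.18. The part of macrophages in the value of Hmox1 was not tested. Ferritin stores iron. Ftl1 was 1.32-fold higher (1.28 to 1.37), from 973 (959 to 987) to 1289 (1245 to 1332), and Fth1 was 1.22-fold higher (1.14 to 1.30), from 603 (576 to 631) to 736 (703 to 768). Both ferritin genes have many processed copies in the genome that can share reads, so their values are uncertain. Blvrb, a biliverdin reductase of red blood cells, had 4.89 (3.81 to 5.97) and 3.24 (2.34 to 4.15), with overlapping intervals and a log2 fold change of -0.58, just short of the call. Of the 9 matched erythroid rows, 6 were lower and 2 higher in Klf9-OE. The haemoglobin rows Hba-a1,Hba-a2 went from 36.6 to 7.30 and Hbb-b1,Hbb-bs from 16.4 to 3.997. Alas2 (0.532 and 0.570) and Slc4a1 (0.0167 and 0.0685) were higher, and Klf1 (0.956 and 0.895) and Gata1 (0.556 and 0.526) slightly lower. These 4 were below an FPKM of 1 in both libraries. The part of red blood cells in the value of Blvrb was not tested.

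Glutathione transferases, which join glutathione to electrophiles, held 2 of the 6 higher members. Mgst1, the microsomal enzyme (chromosome 6, 138140537 to 138156752, forward strand), was 1.69-fold higher (1.43 to 2.002), from 10.6 (9.15 to 12.1) to 18.0 (16.3 to 19.7). Gsta4, which acts on 4-hydroxynonenal, a product of lipid peroxidation (chromosome 9, 78191966 to 78209349, forward strand), was 1.54-fold higher (1.29 to 1.83), from 9.87 (8.48 to 11.3) to 15.2 (13.6 to 16.7). Gstm1 went the other way, from 46.4 (43.3 to 49.6) to 33.2 (31.2 to 35.1), 1.40-fold lower (1.28 to 1.53). Gstm5 had 87.4 (81.8 to 92.9) and 88.1 (82.8 to 93.5). Gstp1 was 1.32-fold higher (1.16 to 1.503), from 29.4 (26.6 to 32.3) to 38.9 (35.5 to 42.2). Its near-identical neighbour Gstp2 went from 20.9 to 35.0, and reads that fit both cannot be assigned. Summed, they went from 50.3 to 73.9, a ratio of 1.47. Genes of the Gstm cluster are also similar in sequence, and Gstm2 was given as 1 row with Gstm3 in the control table.

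**Figure D3:**
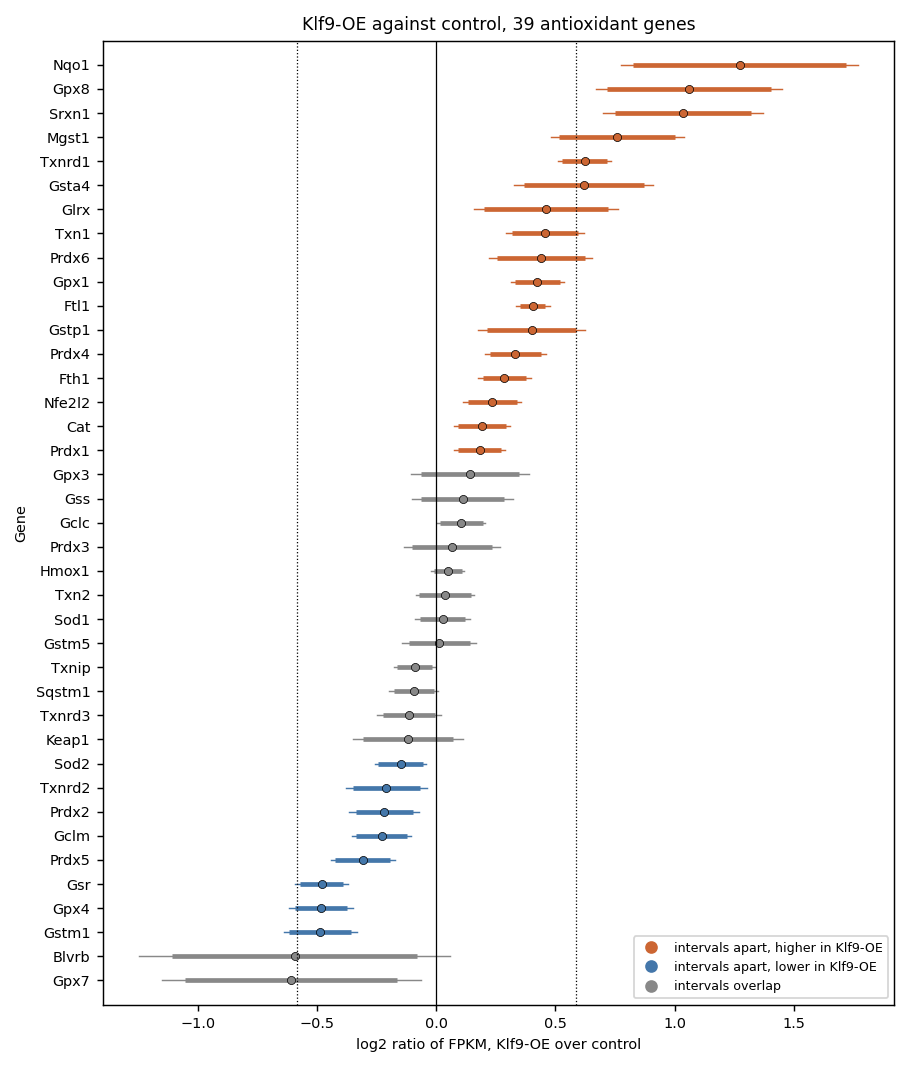
Log2 ratio of FPKM, Klf9-OE over control and without a pseudocount, for the 39 members ordered by ratio, with thick bars for the 95% interval from the deposited bounds, thin bars for the interval with the Klf9-OE bounds widened by the square root of 2, and dotted lines at 1.5-fold. Nqo1, Gpx8 and Srxn1 lie at the top with ratios of 2.42, 2.09 and 2.05, and the 8 genes lower with intervals apart include Gstm1, Gpx4 and Gsr with inverse ratios of 1.40, 1.40 and 1.39.

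Start regions were searched for the same letters in the other members. RefSeq gave 44 starts for 34 members, and none was used for Gclc, Gsr, Gsta4, Hmox1 and Prdx6. The response element core was found in 8 of the 44 (18.2%), against 12.4% of all 32851 start regions and 14.4% of those of genes with an FPKM of at least 1. The GC box was found in 72.7%, against 35.7% and 62.5%, and CACCC on either strand in 72.7%, against 57.5% and 63.3%. The 8 members with a response element core were Gclm, Gstm5, Mgst1, Nfe2l2, Prdx1, Sod1, Srxn1 and Txnrd1. Of these, 5 were higher with intervals apart (Mgst1, Srxn1 and Txnrd1, called at 1.5-fold, and Nfe2l2 and Prdx1). Gclm was lower with intervals apart, and Gstm5 and Sod1 had overlapping intervals. Over all 39 members, 17 (43.6%) were higher with intervals apart, against 14.8% of genes with an FPKM of at least 1. Mgst1 and Txnrd1 had more than 1 start in which a match could fall. Whether a match goes with a higher value was not tested. Shown are the starts of 3 of the genes called higher, Srxn1 (chr2:152105274-152105573, forward strand), Mgst1 (chr6:138140277-138140576, forward strand, the first of 2 starts) and Nqo1 (chr8:107403156-107403455, reverse strand), with capitals as above. The response element core began at position 29 after the start in Srxn1 and at -56 in Mgst1, and none lay in this window of Nqo1. The window of Gpx8 held no match to any of the 3 motifs. A match describes the letters only, and elements farther from the start were not searched.
Srxn1: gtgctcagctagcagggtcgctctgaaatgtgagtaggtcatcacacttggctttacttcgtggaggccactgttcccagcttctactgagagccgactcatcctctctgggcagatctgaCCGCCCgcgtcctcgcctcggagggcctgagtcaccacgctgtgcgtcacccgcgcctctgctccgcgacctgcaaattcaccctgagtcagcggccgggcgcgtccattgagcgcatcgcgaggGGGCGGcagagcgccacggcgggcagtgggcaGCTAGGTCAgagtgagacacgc
Mgst1: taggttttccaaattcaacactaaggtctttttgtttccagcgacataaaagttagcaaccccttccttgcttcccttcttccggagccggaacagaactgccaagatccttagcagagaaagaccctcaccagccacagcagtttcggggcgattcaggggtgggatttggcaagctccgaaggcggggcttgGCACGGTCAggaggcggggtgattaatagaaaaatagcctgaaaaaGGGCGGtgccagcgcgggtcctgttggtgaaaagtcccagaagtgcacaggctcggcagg
Nqo1: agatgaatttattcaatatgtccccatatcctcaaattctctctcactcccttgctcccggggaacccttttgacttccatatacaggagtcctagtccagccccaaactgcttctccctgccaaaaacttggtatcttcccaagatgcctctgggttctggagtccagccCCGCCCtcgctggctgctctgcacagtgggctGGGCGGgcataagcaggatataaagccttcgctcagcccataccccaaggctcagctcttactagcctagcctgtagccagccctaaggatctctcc

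The median of other genes of these pathways did not lean towards higher values. Of a list of 65 further genes of Nrf2 regulation, NADPH supply, thioredoxin-like proteins, glutathione use and selenoprotein synthesis, 60 were matched by symbol. Their median log2 fold change was 0.00. By the 1.5-fold rule 6 (10%) were higher and 4 (6.67%) lower, against 10.4% and 9.83% over all genes. Over genes with an FPKM of at least 1, the shares were 7.15% and 8.05%. The 6 higher genes include Glrx2, whose control value is not usable, and so do the 11 genes (18.3%) with intervals apart and higher. The intervals of 13 (21.7%) were apart and lower. Over all genes these shares were 11.2% and 14.4%, and over genes with an FPKM of at least 1 they were 14.8% and 20.2%. With widened Klf9-OE intervals the counts were 8 (13.3%) and 10 (16.7%), against 11.7% and 16.9% of genes with an FPKM of at least 1.

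Osgin1, a known Nrf2 target and an oxidative stress-induced growth inhibitor, was 2.46-fold higher (1.59 to 3.81), from an FPKM of 0.579 (0.360 to 0.797) to 1.42 (1.11 to 1.74). Slc7a11, another known target and the cystine importer that supplies glutathione synthesis, was 1.38-fold lower (1.18 to 1.60), from 1.56 (1.40 to 1.71) to 1.13 (1.01 to 1.26). For NADPH supply, G6pdx had 18.5 and 20.5 and Pgd 82.7 and 81.8 with overlapping intervals, Me1 was higher (17.3 and 20.2) but overlapped once the Klf9-OE interval was widened, and Taldo1 (201 and 173) and Idh1 (53.0 and 43.1) were lower. Bach1, a repressor that competes with Nrf2, was 1.36-fold higher (1.22 to 1.51), from 3.83 (3.51 to 4.15) to 5.19 (4.86 to 5.52). Among its small Maf partners, Mafg was 1.14-fold higher, and Maff went from 6.07 (5.33 to 6.81) to 3.78 (2.27 to 5.30), with overlap once the Klf9-OE interval was widened.

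Among genes of glutathione use, Mgst2 went from an FPKM of 1.58 (0.770 to 2.39) to 8.36 (6.03 to 10.7) and Ggt7, of the gamma-glutamyltransferase family, from 0.996 (0.746 to 1.25) to 2.0 (1.61 to 2.39). Ggt1 went from 0.492 to 1.06, and its intervals overlapped once widened. Gstt1 was 1.78-fold lower (1.36 to 2.33), from 5.97 (4.95 to 6.99) to 3.36 (2.67 to 4.05). Nnt, the mitochondrial enzyme that makes NADPH from NADH, was 1.43-fold lower (1.25 to 1.64). Txnl1, a thioredoxin-like protein bound to the proteasome, was 2.49-fold lower, from 213 (201 to 224) to 85.3 (81.2 to 89.4), but its row spans a longer region in the control table than in the Klf9-OE table. Glrx2, the mitochondrial glutaredoxin, had 134 (114 to 154) in Klf9-OE, while its control value of 5.37 had an interval from 0 to 22.6 and gives no usable ratio.

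Selenoproteins and the genes that make them were mixed. Sephs2, which makes the selenium donor, was 1.31-fold higher (1.18 to 1.46), while Sepp1, which carries selenium in plasma, was 1.504-fold lower (1.33 to 1.70) and Sepw1 was 1.14-fold lower (1.06 to 1.23). Secisbp2, which binds the selenocysteine insertion element, had 12.9 (12.1 to 13.8) and 13.4 (12.6 to 14.2), with overlapping intervals. The selenoenzymes among the members were likewise on both sides, with Txnrd1 and Gpx1 higher, Gpx4 lower, Txnrd2 lower as deposited but not when widened, and Txnrd3 and Gpx3 with overlapping intervals.

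**Figure D4:**
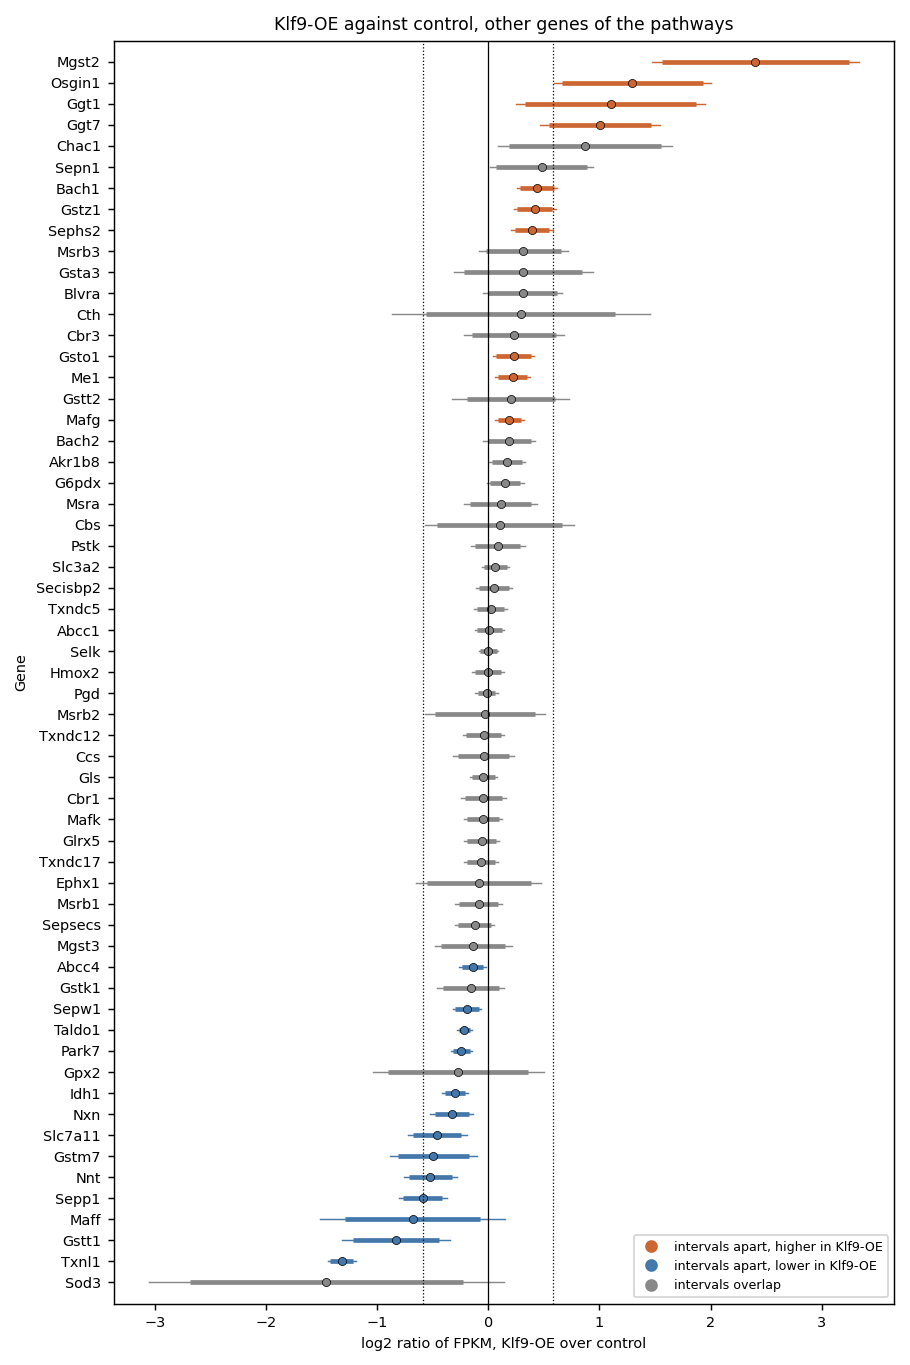
Log2 ratio of FPKM, Klf9-OE over control and without a pseudocount, for 59 of the 60 other pathway genes (Glrx2 is left out because its control interval begins at 0), drawn as for the members. The genes lie on both sides of 0, with Mgst2 and Osgin1 highest with intervals apart and Txnl1 lowest with intervals apart.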

How the data were processed

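Total RNA (500 ng) of each library was sequenced as 51-mer single-end reads after TruSeq v2 preparation. The authors aligned reads to mm10 (TopHat2, Bowtie) and deposited the FPKM of each gene with its 95% bounds from Cufflinks, which also assembled transcripts in each library. Versions are not given in the sources used here, and results of Cuffdiff were not used. Spans are those of the files, counted from 1. They were the same in both libraries for 36 of the 39 members, all but Prdx4, Gpx7 and Sqstm1.

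From these values, FPKM of rows with the same symbol was summed, and 0.1 was added before log2 fold changes were taken, so that changes of low genes are understated. Genes were called at a ratio of 1.5 on this scale. Ratios are without pseudocount, and their 95% intervals combine the relative upper half-widths of both libraries in quadrature. Such an interval covers estimation within a library only. Reads were implied as the square of 2 times the FPKM over the upper half-width, taken as whole within 0.06. Genes with more than 1 row in a table or a failed status had no interval comparison. The calculations were tested on simulated data.

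The members and gene lists were chosen with earlier results of these data known. All 39 members are named, and of the other pathway genes those past 1.5-fold with intervals apart. The rest of those named were chosen after their values were seen. Haemoglobin rows under a joint symbol were added after the data were seen, as was Gstp2. Exons of 10 members overlap an exon of a gene on the opposite strand in GENCODE vM21 (GRCm38), and such reads cannot be told apart, since the library kit does not mark strand. Alternatives were other pseudocounts, scales, filters, rows and ratios and widened intervals. Calculations used pandas 2.3.3 and numpy 2.4.6 in Python 3.11.15, and figures matplotlib 3.10.9.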

Additional observations from a re-analysis of the deposited data

How the results depend on the processing

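With 1 library per condition, no library could be left out. No paired analysis was possible because each condition had 1 library. The number of members at least 1.5-fold higher stayed at 5 or 6 under every other pseudocount, filter and scale tried, and was 3 at a ratio of 2. The number at least 1.5-fold lower was 1 (Gpx7). It was 2 with a pseudocount of 0.01 and 0 with a pseudocount of 1, with FPKM of both libraries set to 1 upper quartile or to 1 sum, and at a ratio of 2. Members with intervals apart and lower numbered 8, and 5 with FPKM set to 1 sum. The median log2 fold change of the members ran from 0.10 to 0.17. Other pathway genes at least 1.5-fold lower numbered 2 with a pseudocount of 1. At a ratio of 2, 3 of these 60 genes were higher and 1 was lower. Over genes with an FPKM of at least 1, the shares at that ratio were 3.68% and 3.51%. Single members kept their log2 fold change within its interval except Ftl1 and Hmox1 when FPKM was set to 1 sum. The number of distinct reads behind the Klf9-OE intervals limits what these can show.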
